A study of Mus musculus with 10 samples.

Results

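Quiescent CD4+CD8+ thymocytes and small pre-B cells are the T and B lineage stages at which precursors have left the cell cycle and assemble antigen receptor genes. The 4 libraries compared here, of 10 in the series, were chosen by their labels: 2 of quiescent thymocytes from the thymus and 2 of small pre-B cells from the bone marrow, with 1 library of each population per genotype. All mice were C57bl/6, analysed at 4 weeks of age. Controls carried Dyrk1a flox/flox without the Mx1-Cre transgene (Mx1-Cre-), and the CKO libraries came from mice labelled Dyrk1a -/- with Mx1-Cre (Mx1-Cre+). Mx1-Cre is driven by an interferon-responsive promoter and is active in many blood and other cells, so it is not restricted to either lineage, and the labels name no inducing treatment. Each library came from a pool of 2 mice, and all libraries of a genotype came from the same pool. The measurement was RNA sequencing, given as FPKM, fragments scaled by transcript length and by the mapped fragments of the library. In all sentences below, 2 FPKM values of a population are those of the control library and then of the CKO-labelled library.

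A T cell receptor signals through the CD3 chains and the kinases LCK and ZAP70, and a pre-B cell receptor through CD79A and CD79B and the kinases LYN, BLK, SYK and BTK. In both lineages the recombinase RAG1 and RAG2 cuts receptor gene segments, which end-joining enzymes then ligate, and cutting is known to be confined to cells outside S phase. The question put to the libraries was which genes separate the lineages at this shared stage, and which genes stand at like levels in both.

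Every fitted difference below is quiescent thymocyte minus small pre-B cell on the log2(FPKM + 1) scale, with its standard error (SE). It came from limma fitted across 11126 genes in the 8 thymocyte and pre-B libraries, with p-values adjusted by the Benjamini-Hochberg method and a call at an adjusted p under 0.05. With 1 pool of mice per genotype, these p-values rest on how alike the lineage difference was in the control and the CKO-labelled pair, not on the spread between animals. The pairs of cycling libraries enter the SE along with the quiescent ones, and limma moderates it across genes. FPKM are relative within a library, so fewer cells of a type in a sort and less RNA per cell cannot be told apart, and the pseudocount of 1 understates the differences of genes near 0. A gene listed at exactly 0 in any of the 4 libraries is given by its values alone, since an exact 0 can be a failed estimate.

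The sum of all values was 360394 to 397094 FPKM in the 4 libraries, and 9842 to 10350 gene symbols reached 1 FPKM. Sequencing depth is unknown. Dyrk1a, the targeted gene, stood at 37.4 and 44.7 FPKM in thymocytes and at 34.1 and 36.9 FPKM in small pre-B cells. It was not lower in either CKO-labelled library. A gene-level value covers the whole transcript, so it does not show whether an exon was lost, and the libraries are called CKO-labelled throughout.

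The populations carried the genes of their labels. All 14 genes of a CD4+CD8+ thymocyte marker list were called higher in thymocytes, with summed levels of 5412 and 4553 FPKM against 548 and 384 FPKM, of which Rag1, a gene of both stages, made up most of the pre-B sum. Of 14 small pre-B markers, 12 were called higher in small pre-B cells, with sums of 7443 and 4494 FPKM against 705 and 645 FPKM. The 2 others were Rag1 and Cd2. Genes of further cell types were also present. Granulocyte and monocyte markers (19 genes found) summed to 52.9 and 54.2 FPKM in thymocytes and to 682 and 522 FPKM in small pre-B cells, S100a8 leading with 272 and 221 FPKM. Natural killer and innate cell markers (18 genes) summed to 26.0 and 59.5 FPKM in thymocytes and to 52.6 and 312 FPKM in small pre-B cells. In the latter Tyrobp led with 29.7 and 118 FPKM. Gzma made up most of the thymocyte sums, at 20.2 and 54.5 FPKM against 2.03 and 23.3 FPKM, and was called higher in thymocytes. Siglech, which marks plasmacytoid dendritic cells, was listed at 0 in both thymocyte libraries and stood at 2.25 and 41.5 FPKM in small pre-B cells. Of the tested genes of these lists, 13 of 17 granulocyte and monocyte genes, 7 of 18 natural killer and innate genes and 7 of 16 plasmacytoid dendritic cell genes were called higher in small pre-B cells. Of all genes tested, 32.2% were called in that direction. The last list shares Spib, Irf8 and Tcf4 with the B lineage factors. The part of these further cell types in the results below was not tested. Erythroid markers summed to 47.8 and 87.8 FPKM in thymocytes and 148 and 142 FPKM in small pre-B cells. In the latter 3 of 13 were called higher. Tfrc made up most of the thymocyte sums, at 43.4 and 67.8 FPKM against 88.9 and 70.2 FPKM. The globin row Hba-a1,Hba-a2 stood at 0.375 and 8.3 FPKM against 17.6 and 15.4 FPKM. Thymic stroma markers summed to 59.1 and 61.9 FPKM against 73.5 and 51.3 FPKM. Pecam1 made up most of each sum, at 52.44 and 52.98 FPKM against 71.24 and 48.55 FPKM. Foxn1, Krt5, Col3a1 and Pdgfra were listed at 0 in all 4 libraries. Epcam stood at 5.25 and 7.04 FPKM against 0.409 and 1.75 FPKM.

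Of the 11126 genes, 3466 were called higher in quiescent thymocytes (31.2%) and 3585 higher in small pre-B cells (32.2%). At least 2-fold apart were 1660 of the former (14.9% of the genes tested) and 1752 of the latter (15.7%). Counts of called genes in the lists below are to be read beside these shares of all genes, which some of them lie near. A 16-fold difference was reached by 120 and 122 genes. The median difference over all genes was -0.03, and its quartiles were -0.66 and 0.62. The difference had the same sign in the control and the CKO-labelled pair for 9819 genes, and for all 7051 called genes. For called genes this is nearly fixed by the test, since a call requires the pairs to be alike. The median gap between the pairs was 0.26, and 888 genes had a gap of 1 or more. With a pseudocount of 5 in place of 1, the counts of genes at least 2-fold apart were 1020 and 855.

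**Figure D1:**
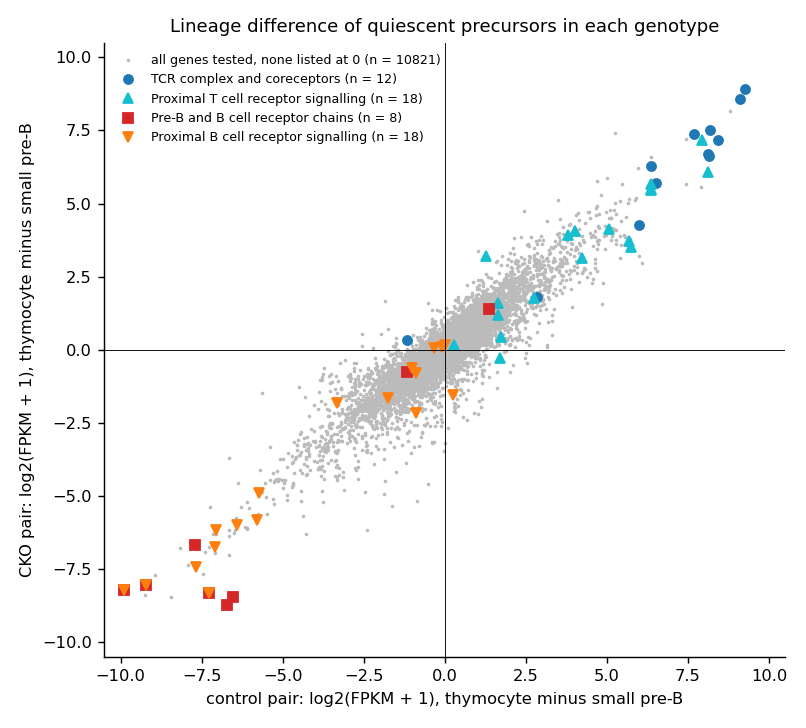
Each point is a gene, placed by its log2(FPKM + 1) difference, quiescent thymocytes minus small pre-B cells, in the control pair (horizontal axis) and in the CKO-labelled pair (vertical axis). The 10821 genes tested that were not listed at 0 in any of the 4 libraries are grey, and members of 4 receptor lists are coloured. Most T cell receptor genes lie at the upper right and most pre-B receptor genes at the lower left. Exceptions include Cd81 at the upper right, Cd2, Fyn and Vav3 with opposite signs in the pairs, and Grb2 and Prkcb near 0.

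Receptor genes were among those with the largest differences. For such genes the start region is of interest because E proteins, basic helix-loop-helix factors that both lineages need, bind E-box motifs there and in enhancers. Promoter windows of 5 receptor and recombinase genes are shown 5′ to 3′, from 250 bases before to 50 bases after a RefSeq transcription start on GRCm38.p6, the assembly of which mm10 is the browser name. Capitals mark the E-box CAGGTG or its reverse complement CACCTG. Cd3e (chr9:45009562-45009861, minus strand) and Cd3d (chr9:44981536-44981835, plus strand) encode signal chains of the T cell receptor. Cd79a (chr7:24897247-24897546, plus strand) encodes the matching chain of the pre-B receptor, and Igll1 (chr16:16863936-16864235, minus strand) its surrogate light chain lambda5. Rag1 (chr2:101649483-101649782, minus strand) is used by both lineages. Each window spans the upstream flank and the first transcribed bases of its gene.
Cd3e: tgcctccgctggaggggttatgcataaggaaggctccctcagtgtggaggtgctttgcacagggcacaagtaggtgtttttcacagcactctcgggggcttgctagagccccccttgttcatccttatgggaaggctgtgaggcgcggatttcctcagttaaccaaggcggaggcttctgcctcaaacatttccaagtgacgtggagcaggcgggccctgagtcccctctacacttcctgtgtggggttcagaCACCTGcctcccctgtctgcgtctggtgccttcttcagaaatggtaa
Cd3d: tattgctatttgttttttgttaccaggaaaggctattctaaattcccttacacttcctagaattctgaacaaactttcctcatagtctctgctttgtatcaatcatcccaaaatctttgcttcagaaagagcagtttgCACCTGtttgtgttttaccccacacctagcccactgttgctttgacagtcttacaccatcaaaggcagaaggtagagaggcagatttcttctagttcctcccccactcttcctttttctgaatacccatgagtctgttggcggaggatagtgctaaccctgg
Cd79a: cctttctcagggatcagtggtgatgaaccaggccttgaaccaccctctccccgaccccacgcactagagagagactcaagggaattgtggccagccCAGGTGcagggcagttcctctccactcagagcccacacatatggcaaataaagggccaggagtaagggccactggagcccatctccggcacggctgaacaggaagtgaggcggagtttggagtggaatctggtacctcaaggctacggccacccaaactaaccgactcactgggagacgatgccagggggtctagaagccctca
Igll1: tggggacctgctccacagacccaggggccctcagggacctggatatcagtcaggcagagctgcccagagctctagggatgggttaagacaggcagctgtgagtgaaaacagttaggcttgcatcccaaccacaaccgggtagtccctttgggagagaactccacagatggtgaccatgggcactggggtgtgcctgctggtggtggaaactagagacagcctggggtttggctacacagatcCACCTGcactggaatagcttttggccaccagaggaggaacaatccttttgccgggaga
Rag1: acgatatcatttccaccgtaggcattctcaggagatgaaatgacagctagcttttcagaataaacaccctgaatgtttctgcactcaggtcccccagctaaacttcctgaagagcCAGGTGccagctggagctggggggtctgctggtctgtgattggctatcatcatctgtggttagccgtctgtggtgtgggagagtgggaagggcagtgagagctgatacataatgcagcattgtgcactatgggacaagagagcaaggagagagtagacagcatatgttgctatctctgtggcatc

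Each of these 5 windows held 1 match. The windows of Cd8a, Vpreb3 and Rag2, which were also searched and are not shown, held no match. Those of Lck and Fcrla, not shown either, held 1 match each. A set of 6 motifs was searched on both strands, with overlapping matches of different motifs allowed, in the RefSeq windows that matched by symbol: 10134 windows of 7959 of the genes tested. CAGGTG was found in 31.2% of 109 windows of genes called at least 16-fold higher in thymocytes, in 18.5% of 119 windows of genes called at least 16-fold higher in small pre-B cells, in 17.3% of the windows of all genes tested and in 20.2% of all 32851 windows of the table. The ETS core CCGGAA was found in 11.9% of the thymocyte windows, 7.56% of the pre-B windows and 28.6% of those of all genes tested. For the EBF motif CCCNNGGG the shares were 19.3%, 11.8% and 18.0% in the same order. They were 11.9%, 15.1% and 11.7% for the TCF/LEF motif CTTTGA, and 15.6%, 16% and 12.7% for the RUNX motif TGTGGT. For the octamer ATGCAAAT they were 1.83%, 3.36% and 1.31%. Over all windows of the table the shares were 14.9% for CCGGAA, 13.7% for CCCNNGGG, 16% for CTTTGA, 16.8% for TGTGGT and 1.74% for ATGCAAAT. The motif shown in capitals was chosen after these shares were seen. A match is a run of letters and not a bound site.

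Of 14 genes of the T cell receptor complex and its coreceptors, 13 were called higher in thymocytes, all at least 2-fold, and the median difference was 7.39. Cd8a, a chain of the CD8 coreceptor (chromosome 6, 71373427 to 71379173, plus strand, mm10), stood at 675 and 519 FPKM in thymocytes and at 0.0961 and 0.0729 FPKM in small pre-B cells. The thymocyte libraries were thus far above both pre-B libraries, with a difference of 9.09 (SE 0.12, adjusted p = 8.66e-05). Cd3d stood at 238 and 181 FPKM against 0.152 and 0.0857 FPKM, a difference of 7.54 (SE 0.14, adjusted p = 8.66e-05). Cd3e was listed at 0 in CKO-labelled small pre-B cells and stood at 0.0285 FPKM in the control ones, against 311 and 217 FPKM in thymocytes. Ptcra, the surrogate alpha chain of the pre-T cell receptor of earlier thymocytes, was low in thymocytes, at 6.47 and 2.67 FPKM, and lower still in small pre-B cells, at 0.0282 and 0.0465 FPKM. The member without a call was Cd2, an adhesion receptor that small pre-B cells are also known to carry, at 44.7 and 28.9 FPKM against 101 and 22.7 FPKM, values that overlap.

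On the other side, 12 of 13 tested chains of the pre-B and B cell receptor and its coreceptors were called higher in small pre-B cells, and 11 of them at least 2-fold (median -7.50). Vpreb3, a chaperone-like relative of the surrogate light chain, was listed at 0 in both thymocyte libraries and stood at 1344 and 858 FPKM in small pre-B cells. Cd79a stood at 1238 and 675 FPKM against 0.305 and 1.29 FPKM in thymocytes (difference -9.05, SE 0.40, adjusted p = 0.000390). Igll1 and Vpreb1, the surrogate light chain pair made before a light chain is available, read 107 and 440 FPKM (Igll1) and 132 and 418 FPKM (Vpreb1) in small pre-B cells. For both genes the control library was the lower of the small pre-B libraries, while for Cd79a it was the higher, and no value of these genes in thymocytes exceeded 1.29 FPKM. Cd81, a tetraspanin that is broadly expressed, was the member called higher in thymocytes, at 129 and 165 FPKM against 49.2 and 61.9 FPKM.

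Downstream of the receptors, the lineages held different members of the same enzyme and adaptor families. Lck, the SRC kinase that starts T cell receptor signalling, stood at 715 and 584 FPKM in thymocytes and at 7.66 and 11.8 FPKM in small pre-B cells (difference 5.94, SE 0.22, adjusted p = 0.000275). Blk, its B lineage relative, stood at 155 and 69.2 FPKM in small pre-B cells and at 0.0350 FPKM or 0 in thymocytes. Blk was thus near absent from the values of both thymocyte libraries, and Lck was low, not absent, in both small pre-B libraries.

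Some of the next steps showed the same exchange. For the SYK family kinases, Zap70 stood at 93.6 and 61.8 FPKM against 0.847 and 3.77 FPKM, and Syk at 8.16 and 8.49 FPKM against 490 and 283 FPKM. For the SLP adaptors, which hold the kinases and phospholipase together, Lcp2 stood at 74.9 and 78.2 FPKM against 3.66 and 3.71 FPKM, and Blnk at 0.160 and 0.237 FPKM against 238 and 211 FPKM. In both families the 2 libraries of a lineage lay apart from the 2 of the other, and all 4 genes were called. Within a library the log2 ratio of Zap70 to Syk was 3.37 and 2.73 in thymocytes and -8.05 and -5.89 in small pre-B cells, on FPKM + 1, a per-length scale that allows levels of genes to be compared. Other pairs did not exchange. Rasgrp1 stood above Rasgrp3 in all 4 libraries, in small pre-B cells at 41.3 and 8.3 FPKM against 4.02 and 3.43 FPKM. Prkcq stood below Prkcb in all 4 libraries, with log2 ratios of -0.65 and -0.91 in thymocytes and -4.98 and -3.97 in small pre-B cells. Btk, the kinase that activates the phospholipase in B cells, stood at 0.0341 and 0.0245 FPKM against 86.4 and 63.7 FPKM. Plcg2, the phospholipase C gamma of B cells, stood at 0.371 and 0.0966 FPKM against 75.6 and 60.4 FPKM. Its relative Plcg1 differed less, at 78.1 and 63.5 FPKM against 24.2 and 27.4 FPKM (difference 1.42, SE 0.16, adjusted p = 0.00254).

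Over the whole lists, 18 of 20 genes of proximal T cell receptor signalling were called higher in thymocytes (median 4.33, or 3.96 without genes listed at 0), and 16 of 20 genes of proximal B cell receptor signalling higher in small pre-B cells (median -3.95). Lat, the membrane scaffold of T cell receptor signalling, reached 808 and 607 FPKM against 1.92 and 7.97 FPKM. Some components were at like levels. Vav1, a guanine nucleotide exchange factor, stood at 65.0 and 51.3 FPKM against 53.1 and 46.1 FPKM, with a 95% interval of the difference from -0.03 to 0.47. Prkcb, a protein kinase C of B cell receptor signalling, stood at 80.6 and 69.5 FPKM against 85.6 and 65.0 FPKM (interval -0.32 to 0.33), and the adaptor Grb2 at 79.7 and 73.9 FPKM against 79.5 and 66.1 FPKM (interval -0.16 to 0.32). Fyn, the second SRC kinase of T cells, was higher in thymocytes in the control pair only, at 52.4 against 15.5 FPKM, and stood at 29.6 against 36.5 FPKM in the CKO-labelled pair, and got no call.

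**Figure D2:**
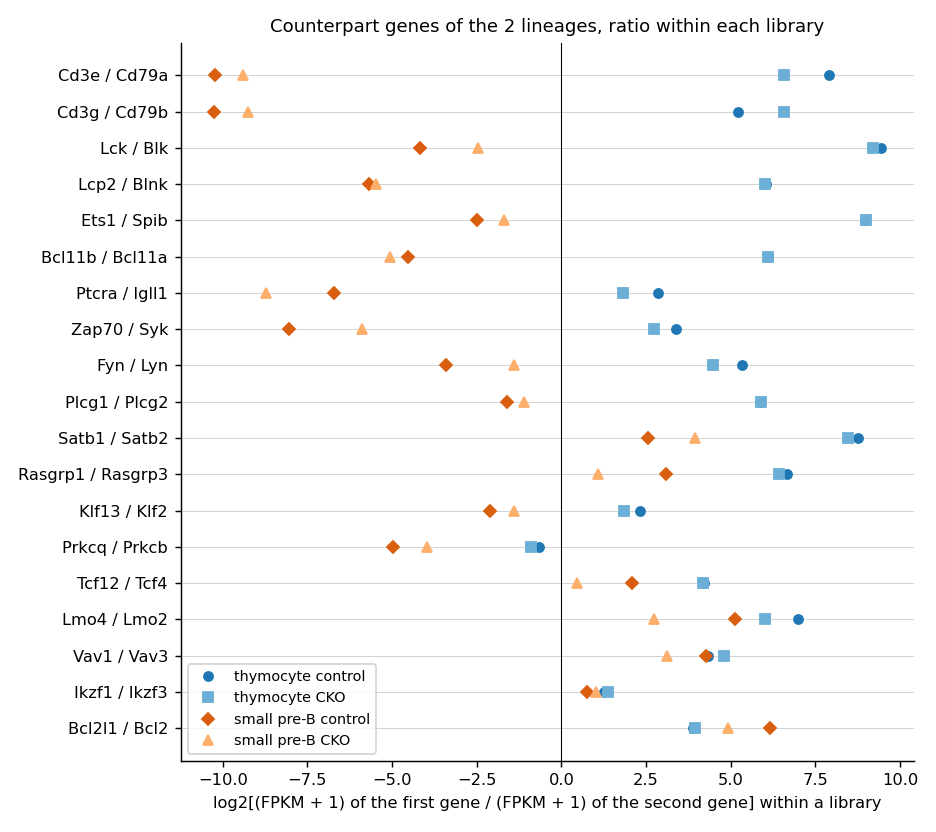
Each row is a pair of related or functionally matching genes, and each symbol is the log2 ratio of (FPKM + 1) of the first to the second gene within 1 library (a gene listed at 0 enters as 0), blue for thymocytes and orange for small pre-B cells. The ratio changes sign between the lineages for Lcp2 and Blnk or Zap70 and Syk, while for Vav1 and Vav3 or Ikzf1 and Ikzf3 all 4 libraries lie on the same side.

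Transcription factors split less evenly. Of 19 tested B lineage factors, 17 were called higher in small pre-B cells, all at least 2-fold (median -4.30, or -3.86 without genes listed at 0). Ebf1, an initiator of the B lineage, stood at 138 and 126 FPKM against 0.0132 and 0.0282 FPKM (difference -7.03, SE 0.13, adjusted p = 8.66e-05). Pax5, which holds B cell identity, stood at 184 and 129 FPKM in small pre-B cells and was listed at 0 in both thymocyte libraries. Spib, an ETS factor of B cells and plasmacytoid dendritic cells, stood at 839 and 420 FPKM against 0.383 and 0.254 FPKM. Cbfa2t3, a corepressor, was the member called higher in thymocytes, at 61.8 and 46.0 FPKM against 32.4 and 23.3 FPKM.

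Of 19 T lineage factors, 13 were called higher in thymocytes and 3 higher in small pre-B cells (median 1.59). Tcf7, the TCF1 gene that acts downstream of Notch in early T cells, stood at 1195 and 1173 FPKM against 1.69 and 3.13 FPKM (difference 8.47, SE 0.17, adjusted p = 8.66e-05). Bcl11b, a keeper of T cell identity, stood at 68.8 and 67.4 FPKM against 0 and 0.00410 FPKM. Satb1, a chromatin organiser, reached 431 and 353 FPKM against 16.5 and 20.3 FPKM. Other factors of the list were shared. Lef1 stood at 58.4 and 36.0 FPKM against 26.0 and 62.9 FPKM, values that overlap, and Runx1 at 36.1 and 31.9 FPKM against 26.9 and 25 FPKM, a difference of 0.37. Tcf3, which encodes the E protein E2A, was higher in small pre-B cells, at 400 and 344 FPKM against 56.0 and 50.2 FPKM (difference -2.79, SE 0.09, adjusted p = 0.000192). Tcf12, which encodes the E protein HEB, stood at 128 and 133 FPKM in thymocytes and 111 and 54.1 FPKM in small pre-B cells, with no call. Zbtb7b and Ikzf1 were the other members higher in small pre-B cells. The calls of Ikzf1 and Runx1, with differences of -0.63 and 0.37, were each lost in 6 of 16 alternative analyses.

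The recombination machinery, which the stages share, differed gene by gene. Over 18 genes of V(D)J recombination and end joining the median difference was -0.16, with 2 called higher in thymocytes, 8 higher in small pre-B cells and 8 without a call. Rag1 stood at 645 and 599 FPKM in thymocytes and at 538 and 366 FPKM in small pre-B cells, where every thymocyte value exceeded every pre-B value. Its difference of 0.48 (SE 0.14, adjusted p = 0.0357) lost its call in 9 of 16 alternatives, among them leaving out the CKO-labelled quiescent pair (0.26, adjusted p = 0.209). Rag2, its partner, went the other way, at 15.7 and 12.4 FPKM against 45.1 and 43.6 FPKM (difference -1.60, SE 0.11, adjusted p = 0.000799).

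Among the enzymes that process the cut ends, Dclre1c (Artemis), which opens hairpin ends, was higher in thymocytes at 56.9 and 50.8 FPKM against 19.9 and 19.0 FPKM. Polm, a polymerase related to terminal transferase and known for its part in light chain joints, was higher in small pre-B cells at 147 and 61.6 FPKM against 8.60 and 3.40 FPKM (difference -3.89, SE 0.22, adjusted p = 0.000583). Dntt, terminal transferase, adds bases without a template. It stood at 397 and 395 FPKM in thymocytes, 68.4 FPKM in control small pre-B cells and 326 FPKM in the CKO-labelled ones. The difference was therefore 2.52 in the control pair and 0.28 in the CKO-labelled pair, with no call (adjusted p = 0.123). Without the CKO-labelled quiescent pair it was called (adjusted p = 0.0116). Prkdc, Xrcc4 and Trp53bp1, end-joining factors, were low and near equal, between 3.30 and 10.1 FPKM in all 4 libraries, with differences of -0.03, -0.08 and -0.03.

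Cytokine receptors and their signal transducers differed gene by gene. Of 30 genes, 13 were called higher in thymocytes and 9 higher in small pre-B cells (median -0.18). Il7r, the receptor that B cell precursors depend on and CD4+CD8+ thymocytes are known to lack, stood at 140 and 112 FPKM in small pre-B cells and at 0.390 and 0.379 FPKM in thymocytes (difference -6.51, SE 0.13, adjusted p = 8.66e-05). Il2ra (CD25), a surface marker of small pre-B cells, stood at 85.2 and 27.4 FPKM against 2.90 and 1.34 FPKM. Several transducers of the same receptor ran the other way. Stat5a stood at 153 and 94.8 FPKM in thymocytes against 12.3 and 12.2 FPKM (difference 3.20, SE 0.21, adjusted p = 0.000746), and Stat5b at 166 and 112 FPKM against 21.9 and 20.8 FPKM (2.62, SE 0.15, adjusted p = 0.000634). Jak1 stood at 115 and 104 FPKM against 65.1 and 45.6 FPKM. Jak3, on a row that also names Insl3, stood at 6.30 and 4.76 FPKM against 8.82 and 18.1 FPKM and got no call. Il2rg, the shared gamma chain, stood at 129 and 101 FPKM against 52.5 and 46.4 FPKM.

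Ifngr1, a chain of the interferon gamma receptor, was higher in thymocytes, at 574 and 458 FPKM against 27.5 and 21.8 FPKM (difference 4.33, SE 0.09, adjusted p = 8.66e-05). Il4ra stood at 85.3 and 71.8 FPKM against 17.1 and 10.2 FPKM, and Il6st (gp130) at 44.3 and 50.5 FPKM against 5.78 and 4.42 FPKM. The suppressors of cytokine signalling Socs1 and Socs3 were also higher in thymocytes, Socs1 at 324 and 226 FPKM against 62.5 and 24.0 FPKM. Socs2 was higher in small pre-B cells, at 8.92 and 30.3 FPKM against 0.541 and 0.932 FPKM. Without the control quiescent pair 14 genes of the list, in place of 9, were called higher in small pre-B cells. Il2rb, also a member of the natural killer and innate list, stood at 8.4 FPKM in CKO-labelled small pre-B cells and at most 0.797 FPKM in the other 3 libraries.

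**Figure D3:**
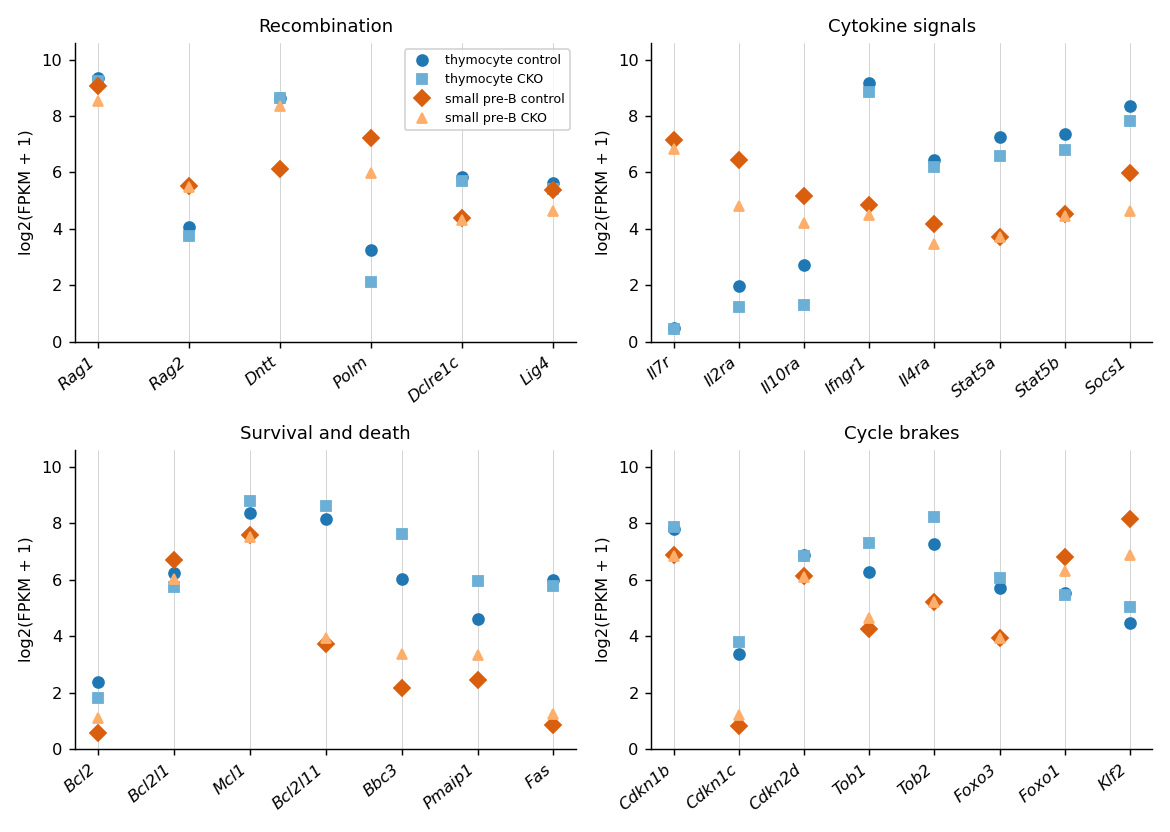
The log2(FPKM + 1) level of 29 genes is shown in each of the 4 libraries, thymocytes in blue and small pre-B cells in orange. Il7r is near 0 in both thymocyte libraries while Stat5a and Stat5b are above both pre-B libraries, and among these 4 libraries Dntt is low in the control small pre-B one alone.

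Homing receptor genes also differed between the lineages. Ccr9, the receptor for a chemokine of the thymus and gut, stood at 365 and 265 FPKM in thymocytes against 0.526 and 4.60 FPKM (difference 6.74, SE 0.59, adjusted p = 0.00135). Plxnd1, a semaphorin receptor of thymocytes, stood at 238 and 149 FPKM against 8.54 and 20.6 FPKM. Cxcr4, which retains precursors in the marrow, was higher in small pre-B cells, at 386 and 286 FPKM against 129 and 145 FPKM, as was S1pr1, the egress receptor, at 51.2 and 24.6 FPKM against 2.78 and 3.23 FPKM. Over 18 tested genes of the list, 6 were called higher in thymocytes and 10 higher in small pre-B cells.

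Most antigen presentation genes were higher in small pre-B cells. For MHC class II this held for 11 of 12 genes, all at least 2-fold (median -3.13). Cd74, the invariant chain, stood at 245 and 216 FPKM against 0.740 and 1.74 FPKM (difference -6.72, SE 0.34, adjusted p = 0.000482), and Ciita, the class II transactivator, at 4.55 and 2.55 FPKM against 0.0311 and 0.0165 FPKM. For MHC class I, 9 of 13 genes were higher in small pre-B cells and 3, Tap2, Calr and Pdia3, higher in thymocytes (median -1.48), B2m reaching 1701 and 1939 FPKM against 317 and 465 FPKM. Tap2, a subunit of the peptide transporter, was higher in thymocytes at 89.1 and 102 FPKM against 40.1 and 44.8 FPKM, while its partner Tap1 was higher in small pre-B cells at 52.2 and 84.1 FPKM against 29.2 and 40.8 FPKM. Class II genes are also genes of dendritic cells and mature B cells. The mature B and plasma cell marker list summed to 95.7 and 109 FPKM in thymocytes and 493 and 223 FPKM in small pre-B cells, and its part was not tested.

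BCL2 family genes were called in both directions, and the widest differences were those of genes that promote cell death and were higher in thymocytes. Bcl2l11 (BIM), the BH3-only protein that removes thymocytes in negative selection, stood at 286 and 395 FPKM against 12.3 and 14.2 FPKM (difference 4.57, SE 0.11, adjusted p = 0.000107). Bbc3 (PUMA) stood at 63.5 and 197 FPKM against 3.51 and 9.34 FPKM, and Pmaip1 (NOXA) at 23.2 and 60.8 FPKM against 4.46 and 9.19 FPKM. For both genes the CKO-labelled library was the higher in each lineage. Other death-promoting members went the other way, with Bak1, an effector that permeabilises mitochondria, at 33.3 and 37.3 FPKM in small pre-B cells against 18.4 and 19.8 FPKM (difference -0.85, SE 0.11, adjusted p = 0.0034), and Bmf, a BH3-only gene, at 55.2 and 39.8 FPKM against 33.1 and 33.2 FPKM. Fas, the death receptor, stood at 62.4 and 53.4 FPKM against 0.823 and 1.37 FPKM. Of the antiapoptotic genes, Mcl1 was higher in thymocytes at 328 and 447 FPKM against 190 and 180 FPKM. Bcl2 was low in all 4 libraries, at 4.24 and 2.51 FPKM against 0.468 and 1.12 FPKM. Bcl2l1 (BCL-XL), the main survival gene of CD4+CD8+ thymocytes, stood at 75.5 and 52.8 FPKM against 104 and 63.7 FPKM, values that overlap, and its call for small pre-B cells (-0.36) was lost in 7 of 16 alternatives. Of 14 tested BCL2 family genes, 6 were called higher in thymocytes and 4 higher in small pre-B cells. Of 19 tested p53 target genes, which share Bbc3, Pmaip1 and Bax with that family, 12 were called higher in thymocytes and 1, Plk2, higher in small pre-B cells (median 0.76; 0.42 in the control and 1.35 in the CKO-labelled pair).

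Genes induced by antigen receptor signals showed 2 patterns. The orphan nuclear receptors, which mark T cell receptor signalling in thymocytes, were far higher in thymocytes. Nr4a1 stood at 309 and 975 FPKM against 7.15 and 4.68 FPKM (difference 6.34, SE 0.54, adjusted p = 0.00128), and Nr4a3 at 81.8 and 90.9 FPKM against 0.330 and 0.225 FPKM. The immediate early AP-1 genes had no common direction. Fos stood at 29.2 and 106 FPKM in thymocytes and 174 and 72.0 FPKM in small pre-B cells, and Jun at 64.8 and 244 FPKM against 254 and 170 FPKM. In both, the pre-B library was higher in the control pair and the thymocyte library in the CKO-labelled pair. Over the 24 genes of the list the median difference was -0.33 in the control pair and 0.96 in the CKO-labelled pair, with 9 genes called higher in thymocytes and 5 higher in small pre-B cells. The phosphatase gene Dusp6, a feedback target of ERK, was called higher in small pre-B cells at 93.3 and 44.1 FPKM against 12.8 and 17.9 FPKM.

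Cell cycle genes were lower in quiescent thymocytes than in small pre-B cells, and more so in the control pair. Of 30 G2-M and mitotic genes, 26 were called higher in small pre-B cells and 1 higher in thymocytes (median -1.68; -2.16 in the control and -1.02 in the CKO-labelled pair). Of 34 G1-S and replication genes, 23 were called higher in small pre-B cells and 2 higher in thymocytes (median -1.12; -1.60 and -0.53). Top2a, topoisomerase II of dividing cells, stood at 3.27 and 52.0 FPKM in thymocytes and 62.3 and 144 FPKM in small pre-B cells (difference -2.67, SE 0.57, adjusted p = 0.0147). Mki67, the proliferation marker, stood at 1.70 and 48.3 FPKM against 35 and 75.5 FPKM. In both genes the CKO-labelled thymocyte library was well above the control one, and Mki67 got no call (difference -2.19, SE 0.73, adjusted p = 0.0530), though it was called with either quiescent pair left out.

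The median level of the G2-M genes was 1.56 and 14.5 FPKM in quiescent thymocytes, 16.5 and 34.5 FPKM in small pre-B cells, 75.3 and 72.0 FPKM in cycling thymocytes and 108 and 110 FPKM in large pre-B cells. All 4 quiescent libraries were thus below the 4 cycling ones, and control quiescent thymocytes were the lowest. Since the genotypes differ within each population, the counts depend on how genotype is fitted. With 1 genotype effect for both states, 16 G2-M and 7 G1-S genes were called higher in small pre-B cells. With no genotype effect these counts were 6 and 2, and in the 4 quiescent libraries without genotype 0 and 1. Without a filter on low values 11 G1-S genes were called.

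**Figure D4:**
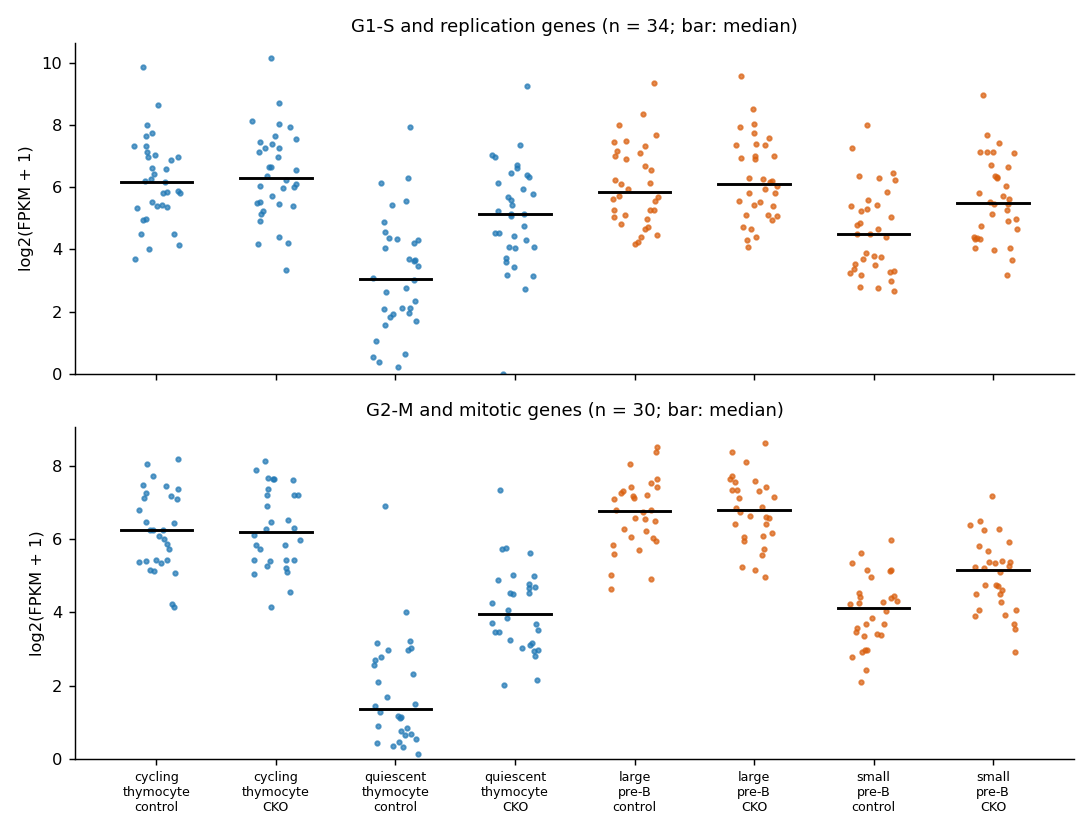
Each point is the log2(FPKM + 1) level of a cell cycle gene in 1 library, blue for thymocytes and orange for pre-B cells, with a bar at the median of 34 G1-S genes (upper panel) or 30 G2-M genes (lower panel). Control quiescent thymocytes have the lowest medians, 7.32 and 1.56 FPKM, and CKO-labelled small pre-B cells the highest of the 4 quiescent libraries, 44.1 and 34.5 FPKM.

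Not all cycle genes followed this direction. Cdt1, a licensing factor that accumulates outside S phase, was higher in thymocytes at 46.4 and 82.0 FPKM against 21.6 and 42.9 FPKM (difference 0.99, SE 0.10, adjusted p = 0.00189), and so was the condensin subunit gene Smc4 at 120 and 161 FPKM against 48.6 and 89.2 FPKM. The calls of both were lost in the 4 quiescent libraries without genotype. Ccnd3, the D-type cyclin both lineages use to expand, stood at 208 and 208 FPKM against 240 and 162 FPKM, and the 95% interval of its difference ran from -0.37 to 0.53. Ccnd2 was low, at 1.01 and 3.11 FPKM against 3.75 and 17 FPKM. Of 5 tested inhibitors of cyclin-dependent kinases of this list with a call, 4 were higher in thymocytes and 1, Cdkn2c (p18), higher in small pre-B cells, at 21.2 and 40.5 FPKM against 16 and 29.4 FPKM. Cdkn1b (p27) stood at 221 and 236 FPKM against 116 and 114 FPKM (difference 0.98, SE 0.12, adjusted p = 0.00295), Cdkn1c (p57) at 9.22 and 12.9 FPKM against 0.763 and 1.31 FPKM, and Cdkn2d (p19) at 118 and 113 FPKM against 68.5 and 67.6 FPKM. In Cdkn1b, Cdkn1c and Cdkn2d every thymocyte value exceeded every pre-B value. The call of Cdkn2c (difference -0.42) was lost in 7 of 16 alternatives and that of Cdkn1a (p21), higher in thymocytes at 9.82 and 64.1 FPKM against 7.09 and 17.5 FPKM, in 10 of 16, and Cdkn2a, with a difference of -0.42, got no call. Rbl2, which encodes the p130 pocket protein of resting cells, was also higher in thymocytes, at 33.9 and 33.3 FPKM against 17 and 15.9 FPKM.

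Factors linked with quiescence were divided between the lineages. Of 24 genes, 10 were called higher in thymocytes and 3 higher in small pre-B cells (median 0.26). Tob1 and Tob2, antiproliferative genes, stood at 75.7 and 157 FPKM against 18.1 and 24.1 FPKM, and at 152 and 302 FPKM against 36.0 and 36.0 FPKM. Foxo3 was higher in thymocytes, at 51.1 and 66.6 FPKM against 14.2 and 14.2 FPKM. Its relative Foxo1, which drives Rag and Il7r transcription in B cell precursors, was higher in small pre-B cells, at 111 and 78.2 FPKM against 45.6 and 42.6 FPKM. Klf2, a quiescence factor of mature lymphocytes, stood at 284 and 116 FPKM in small pre-B cells against 21.1 and 31.4 FPKM (difference -2.77, SE 0.46, adjusted p = 0.00680), and Foxp1 at 124 and 81.4 FPKM against 21.4 and 19.7 FPKM.

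Most glycolysis and lipid synthesis genes with a call were higher in thymocytes, and most oxidative phosphorylation genes with a call were higher in small pre-B cells. Of 20 tested genes of glucose uptake and glycolysis, 12 were called higher in thymocytes and 1, Pgam1, higher in small pre-B cells (median 1.02). Ldhb, a lactate dehydrogenase subunit, stood at 243 and 77 FPKM against 0.401 and 0.550 FPKM (difference 6.55, SE 0.43, adjusted p = 0.000782). Slc2a1, the glucose transporter GLUT1, stood at 42.1 and 35.8 FPKM against 6.85 and 6.52 FPKM, and Gapdh at 649 and 673 FPKM against 266 and 380 FPKM. In the cycling populations of the same lineages the median over the list was 0.15.

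Of 25 genes of cholesterol and fatty acid synthesis, 13 were called higher in thymocytes and 4 higher in small pre-B cells (median 0.87). The stearoyl-CoA desaturases were split, Scd2 standing at 221 and 350 FPKM in thymocytes against 57.9 and 46.3 FPKM, and Scd1 at 45.4 and 15.7 FPKM in small pre-B cells against 0.850 and 0.870 FPKM. Insig1, a sterol feedback gene, reached 100 and 206 FPKM against 14.0 and 23.9 FPKM. Over all genes tested, 31.2% were called higher in thymocytes and 32.2% higher in small pre-B cells. None of 40 cytosolic ribosomal protein genes was called higher in thymocytes (median -0.33). Higher in small pre-B cells were 14, near the share of all genes and none of them 2-fold. That count was 5 without the control quiescent pair, 2 without the CKO-labelled quiescent pair and 5 without the filter. Of 28 oxidative phosphorylation genes, 2 were called higher in thymocytes and 13 higher in small pre-B cells (median -0.27). The latter count was 7 with any pair of libraries left out.

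**Figure D5:**
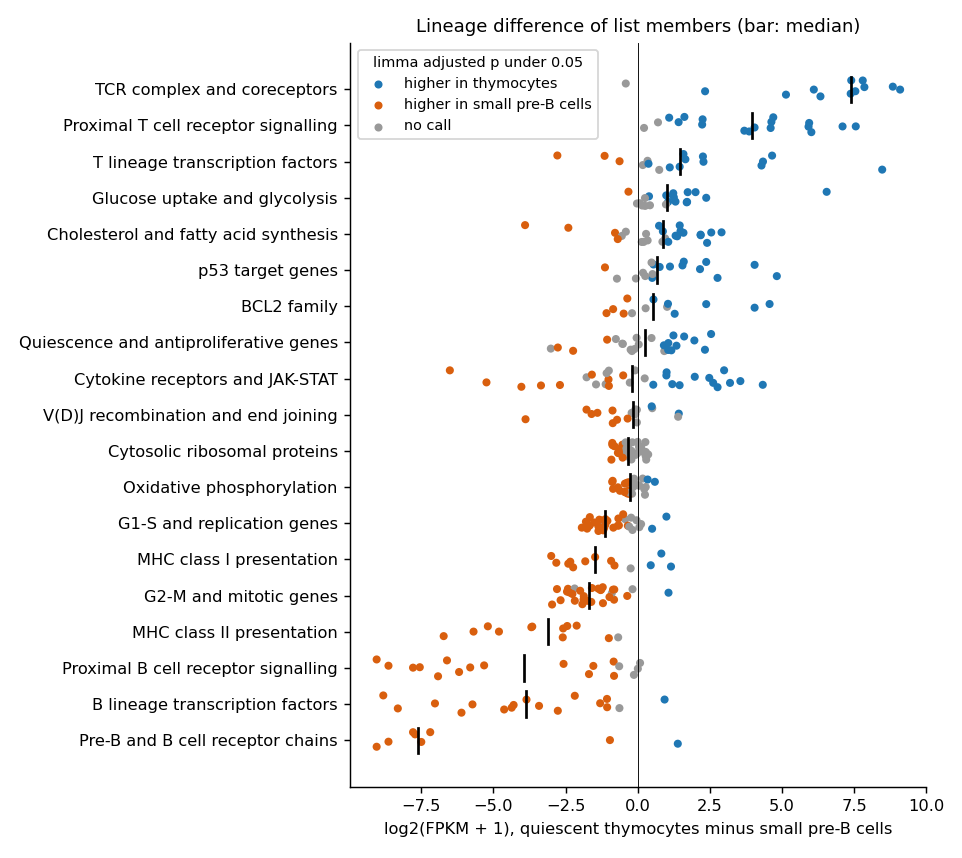
Each point is a gene of the named list, placed by its fitted log2(FPKM + 1) difference, quiescent thymocytes minus small pre-B cells, with bars at list medians; genes listed at 0 in any of the 4 libraries are left out, and vertical spread within a row is for legibility. Receptor and factor lists reach a difference of 9.09, while ribosomal protein and oxidative phosphorylation genes lie within 1 unit of 0.

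Whether the lineage difference itself changed between quiescent and cycling cells was asked with the cycling thymocytes and large pre-B cells of the same mice. No gene passed the threshold in limma (0.0% of 11126 genes), while 2581 genes had an unadjusted p under 0.05. The counts depended on 1 pair of libraries. Without the CKO-labelled quiescent pair, 713 genes had a more thymocyte-sided and 875 a more pre-B-sided difference in quiescent cells. Without the control quiescent pair these counts were 12 and 6. As a description, the median over the G2-M genes was -1.68 in quiescent and -0.50 in cycling cells, and over the G1-S genes -1.12 and 0.06. For the T cell receptor complex the medians were 7.39 and 6.55, and for the pre-B receptor chains -7.50 and -6.87.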

How the data were processed

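RNA was sequenced from sorted populations. The authors deposited gene-level FPKM, the unit being inferred from Cuffdiff (version 2.1.1) and TopHat2 (version 2.0.8b) on mm10, which the submitters' processing notes name; the annotation, strand setting and depth are not given in the sources used here. Of 23179 rows in each deposited file, 201 exact repeats were removed and for 47 symbols on differing rows the row with the highest mean was used, which gave 22923 symbols; 156 rows name several genes. Genes with at least 1 FPKM in 2 of 8 libraries were fitted on log2(FPKM + 1) with limma 3.58.1 (mean-variance trend) in R 4.3.3, with 4 population means and a genotype effect for each state (2 residual degrees of freedom), and Benjamini-Hochberg adjustment. On simulated data in which 200 genes differed 2-fold between the lineages, the fit on 10867 genes called 100% of them and 12 unchanged genes. For a simulated 2-fold change of the lineage difference with state it called 88% and 7 unchanged genes. The data differ from this setting, since 7051 of 11126 genes were called for lineage. In the data the lineage difference of Wdr12 changed by 2.02 log2 units with state and got no call (limma adjusted p = 0.108). The simulated shares thus do not show how many such changes the fit finds in these data.

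The members and the 35 gene lists were chosen with earlier results of these data known. Named by rule were the 12 genes with the largest difference in each direction, among called genes with the same sign in both pairs. Immunoglobulin and T cell receptor loci, some sex-linked genes, small RNA genes and predicted or unnamed genes were left out of that ranking. Also named by rule were the 3 most abundant and the most different member of each list, and the genes of 20 counterpart pairs. So were Dyrk1a, Rag1, Rag2, Dntt, Ccnd2, Ccnd3, Cdkn1b, Mki67 and Il7r. Other list members were picked for a known role after their values were seen. Gene bounds come from GENCODE on mm10. The alternatives were other pseudocounts, filters, scalings, genotype terms and each pair of libraries left out. Some genes of the lists and pairs are not reported here.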

Additional observations from a re-analysis of the deposited data

Results flagged for a closer look

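Of 185 tested genes whose lineage difference had opposite signs in the control and the CKO-labelled pair and lay at least 1 log2 unit apart, 21 are given here. In 7 of them the lineages were at least 2-fold apart in both pairs, and the others are immediate early genes or genes described or named by rule. With 1 library of each kind, the difference between the pairs was not tested. Differences are thymocyte minus small pre-B cell on log2(FPKM + 1), the control pair first.

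Immediate early genes, and some others, were more thymocyte-sided in the CKO-labelled pair. The differences were -2.54 and 0.55 for Fos, -1.86 and 1.68 for Fosb, -1.96 and 0.52 for Jun, and -0.38 and 0.68 for Jund. They were -0.29 and 0.97 for Egr1, -0.39 and 0.88 for Egr3, -0.38 and 0.96 for Atf3, and -0.15 and 1.31 for Ier2. Cd2 (-1.16 and 0.34), Btg1 (-0.83 and 0.34) and Btg2 (-0.39 and 1.35) went the same way.

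The other genes went the opposite way. Fyn had differences of 1.70 and -0.29, Lef1 of 1.14 and -0.79, Vav3 of 0.25 and -1.54, and the Notch target Hes1 of 0.22 and -1.02. The values were 1.6 and -1.31 for Ctsw, a cathepsin of cytotoxic lymphocytes, and 1.12 and -1.97 for Myo1f, a myosin of blood cells. They were 1.15 and -1.15 for Card9, an adaptor of myeloid cells, and 1.01 and -2.18 for Lifr. Tbc1d8 (1.14 and -1.68) and Tmem221 (1.05 and -1.74) complete the set. Natural killer or myeloid cells also express 3 of these genes, Ctsw, Myo1f and Card9. In every gene of this paragraph the CKO-labelled small pre-B library lay above its thymocyte partner, which is fixed by how the genes were grouped. The natural killer and innate marker sum of that library was 312 FPKM, and Ctsw is itself a member of that list. The part of such cells was not tested.

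Ankrd10 was listed at 0 in control thymocytes and CKO-labelled small pre-B cells and stood at 86.2 and 55.6 FPKM in the 2 other libraries. The small RNA genes Snora16a, Snora52 and Snora70 showed the same 0s, and Nav2 was listed at 0 in control small pre-B cells; no difference is given for these 5 genes.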

How the results depend on the processing

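Among 605 listed or named genes, 411 were called, and 266 of these kept their call in all 16 alternatives; no called gene changed sign. Over all genes tested, the counts higher in thymocytes and in small pre-B cells stayed within 1.5 times the main counts, except that 2294 genes were higher in small pre-B cells with the 4 quiescent libraries alone and no genotype term. Rescaling by median ratios gave 3124 and 4039 genes and shifted the median difference to -0.12, against -0.03 in the main fit. With each pair of libraries left out, the counts ran from 2810 to 3132 and from 2831 to 3276. At least 2-fold apart with a pseudocount of 5 were 1020 and 855 genes. For the change of the lineage difference with state, 1 gene was thymocyte-sided with 1 genotype effect for both states, 12 thymocyte-sided and 2 pre-B-sided with no genotype effect, and 1 pre-B-sided with a pseudocount of 0.1. Leaving out a pair gave 0 to 713 thymocyte-sided and 0 to 875 pre-B-sided genes, the highest without the CKO-labelled quiescent pair. With a pair left out, the lone library of each population is assumed to vary like the others. The cause was not tested. The depth of the libraries is unknown, and differences of genes near 0 depend on the pseudocount.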

Other observations

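Among genes that were not in the lists, Syt13, a synaptotagmin, stood at 258 and 166 FPKM in quiescent thymocytes against 0.481 and 0.125 FPKM in small pre-B cells. On the pre-B side, Tifa, a TRAF-interacting adaptor, stood at 566 and 375 FPKM against 0.632 and 0.0683 FPKM, and Unc93b1, the chaperone of nucleic acid-sensing Toll-like receptors, at 414 and 296 FPKM against 0.731 and 0.787 FPKM. Each was among the 12 genes with the largest difference in its direction, in a ranking that left out immunoglobulin and T cell receptor loci. The groups did not overlap, which follows from picking the genes by their difference.

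Notch pathway genes were split, with 7 of 13 called higher in thymocytes and 3 higher in small pre-B cells. Notch1, the receptor that commits T cells, was called higher in thymocytes, at 24.2 and 37.5 FPKM against 16 and 18.3 FPKM (difference 0.78, SE 0.13). Hes5, a target of the pathway, was low in all 4 libraries, at 0.661 and 0.885 FPKM against 2.27 and 4.26 FPKM. Of 27 tested interferon-stimulated genes, 13 were called higher in small pre-B cells and 3 higher in thymocytes. Igtp, a GTPase induced by interferon gamma, was higher in thymocytes at 195 and 135 FPKM against 9.13 and 20.1 FPKM, while Mx1, whose promoter drives the Cre, stood at 2.30 and 4.99 FPKM in small pre-B cells and 0.0673 and 0.0427 FPKM in thymocytes. Of 24 ribosome biogenesis and MYC target genes, 11 were called higher in thymocytes and 3 higher in small pre-B cells (median 0.27). Odc1, the first enzyme of polyamine synthesis, stood at 87.7 and 114 FPKM against 21.1 and 24.8 FPKM, and Wdr12, a factor of large ribosomal subunit assembly, at 38.2 and 27.5 FPKM against 6.21 and 5.45 FPKM. Myc itself was low, at 4.20 and 7.26 FPKM against 4.81 and 16.9 FPKM, with no call.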
